A study of Homo sapiens with 27 samples.

Results

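The 33 genes described here are NFE2L2, which encodes the transcription factor NRF2, its repressor gene KEAP1, and 31 genes of the oxidative stress response that NRF2 is known to control or that act beside its targets. They were listed by symbol for their known roles, not by a threshold on their values, and are 33 of the 60604 gene entries analysed. Counts of all 33 were present, and 32 passed the filter on low counts; GPX2 did not. RNA was sequenced from EA.hy926, a hybrid of umbilical vein endothelial cells (HUVEC) and A549 lung carcinoma cells. It met ASC52telo cells or their products for 48 h. ASC52telo is a line of mesenchymal stromal cells (MSCs) from fat tissue immortalised with hTERT, the catalytic part of telomerase. The senescent MSCs were made with mitomycin C, which crosslinks DNA, given for 18 h at 1.5 µg/mL and followed by 10 days of rest. The young MSCs were left untreated. The groups were senescent and young extracellular matrix (ECM, left after MSCs were stripped away with detergent), senescent and young conditioned medium (CM, mixed with an equal part of culture medium), senescent and young co-culture with live MSCs in equal numbers, and control cells with no exposure. Each group had 4 libraries, but senescent co-culture had 3, whose replicate numbers start at 2. Every group is of the same pair of cell lines, so no result extends to primary cells. Whether the libraries of a group are separate cultures is not in the labels, so the p-values measure only a spread between libraries that could be technical. Nor do they say whether MSCs were removed from the co-cultures before lysis. The protocol for extraction speaks of MSC RNA, whereas each sample is labelled as endothelial; the sample label is followed here.

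NRF2 is held low in resting cells by KEAP1, which brings it to a ubiquitin ligase. Oxidants and electrophiles modify cysteines of KEAP1, NRF2 builds up, pairs with small MAF proteins and binds the antioxidant response element in promoters and enhancers. Its known targets make and recycle glutathione and thioredoxin, reduce quinones and carbonyls, supply NADPH, break down haem, store iron and conjugate or export foreign compounds. A549, a parent of EA.hy926, is known for inactive KEAP1 and constantly active NRF2. In endothelial cells NRF2 and HMOX1 are known for protection against oxidants and inflammatory signals.

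The core of the antioxidant response element, TGACNNNGC, was searched on both strands of RefSeq promoter windows of GRCh38.p14, each 300 bases long from 250 bases before the transcription start to 50 after it, with the first listed start of each gene. The table held 24 of the 33 members, and 7 of them (29.2%) carried at least 1 match, against 13.6% of all 27305 promoters in the table. The promoters of HMOX1, FTH1, AKR1B10, SLC7A11, GSR, PRDX1, ABCC1, ABCC3 and SLC6A6 were not analysed here. The windows of TXNRD1, GCLM, PGD and ME1 are shown because they set 3 members that passed in more than 1 comparison beside ME1, which was called in none and has a pair of matches. Capitals mark the matches, which read as the reverse complement where the core lies on the opposite strand. TXNRD1 lies at chr12:104215529-104215828 (plus strand), GCLM at chr1:93909381-93909680 (minus strand), PGD at chr1:10398814-10399113 (plus strand) and ME1 at chr6:83431002-83431301 (minus strand).
TXNRD1: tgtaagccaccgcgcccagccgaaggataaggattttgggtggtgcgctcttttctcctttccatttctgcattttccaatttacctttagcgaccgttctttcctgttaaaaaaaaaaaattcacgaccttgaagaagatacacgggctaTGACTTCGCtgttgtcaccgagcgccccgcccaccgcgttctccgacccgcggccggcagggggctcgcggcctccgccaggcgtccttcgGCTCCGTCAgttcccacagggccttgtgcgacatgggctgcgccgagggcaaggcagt
GCLM: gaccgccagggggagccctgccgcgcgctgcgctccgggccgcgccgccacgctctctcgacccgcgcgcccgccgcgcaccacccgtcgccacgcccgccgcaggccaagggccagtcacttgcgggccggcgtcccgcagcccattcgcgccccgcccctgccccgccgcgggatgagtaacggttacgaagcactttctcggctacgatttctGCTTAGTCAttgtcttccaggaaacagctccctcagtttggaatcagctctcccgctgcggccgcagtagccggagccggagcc
PGD: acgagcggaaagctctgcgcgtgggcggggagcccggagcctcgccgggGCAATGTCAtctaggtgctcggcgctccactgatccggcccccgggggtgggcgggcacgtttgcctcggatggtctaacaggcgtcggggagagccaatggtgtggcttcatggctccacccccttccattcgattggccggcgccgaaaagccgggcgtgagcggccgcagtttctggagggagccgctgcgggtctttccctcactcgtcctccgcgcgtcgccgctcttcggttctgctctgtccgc
ME1: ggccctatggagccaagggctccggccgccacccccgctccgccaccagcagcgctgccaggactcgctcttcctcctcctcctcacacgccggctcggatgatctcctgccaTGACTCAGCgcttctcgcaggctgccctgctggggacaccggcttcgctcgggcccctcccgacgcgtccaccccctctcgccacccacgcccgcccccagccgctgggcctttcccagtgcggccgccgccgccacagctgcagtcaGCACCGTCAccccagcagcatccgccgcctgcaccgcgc

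TXNRD1 had a match whose first base lay 99 bases before the start on the gene's strand and another 8 bases before it on the opposite strand. The matches of GCLM and PGD lay 34 and 201 bases before the start, both on the opposite strand. ME1 had matches 137 bases before the start and at base 12 after it. The other members with a match were GPX2, CBR1 and PIR. The match of PIR and the upstream match of ME1 also contain TGACTCA, the motif of AP-1 factors, so those letters do not tell the motifs apart. NQO1, TALDO1, UGDH, OSGIN1 and AKR1C1 had no match in this window. Enhancers farther off were not searched, and a match is not a binding site.

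**Figure D1:**
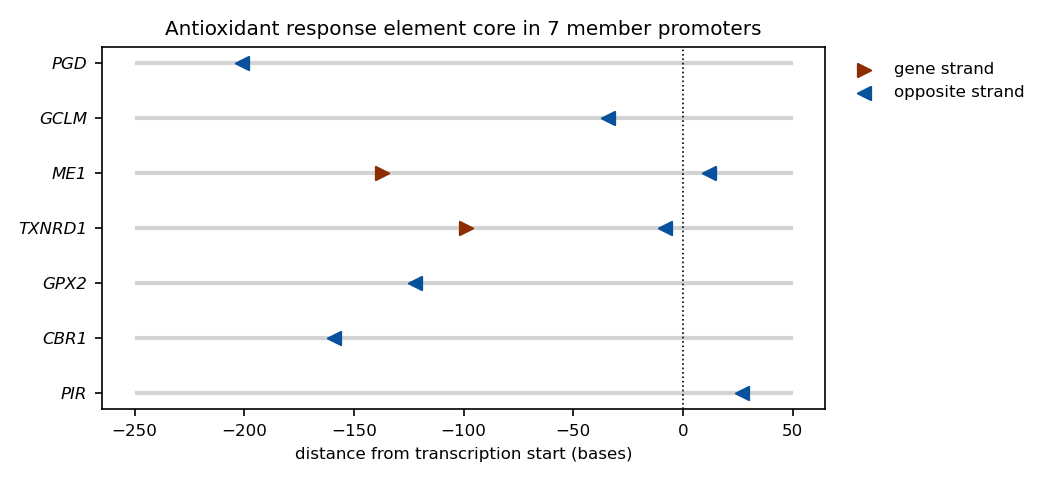
Position of each TGACNNNGC match relative to the transcription start (bases, dotted line at the start) in the 7 member promoters that hold one; right-pointing marks are on the gene's strand and left-pointing ones on the opposite strand. TXNRD1 and ME1 each have a pair of matches and the other genes have 1.

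Total counts per library ran from 66320519 to 111512357, so every member but GPX2 and AKR1C2 rested on at least 61 counts in each library of replicates 2 to 4. Replicate 1 stood apart in every group that had one. Summed over 14 stromal marker genes, replicate 1 of the control, ECM and CM groups held 5856 to 10590 CPM (counts per 1000000, with library totals scaled by the TMM method over all libraries), against 73.7 to 283 CPM in replicates 2 to 4. Young co-culture replicate 1 held 118 CPM, but 26.2% of its counts fell on ribosomal protein genes and its TMM factor was 0.459. Values below are therefore of replicates 2 to 4 unless replicate 1 is named. Among these, the stromal sum was higher in co-cultures than in the other groups (674 to 677 CPM with senescent and 409 to 599 CPM with young MSCs). COL1A1 was higher with senescent than with young MSCs (118 to 169 CPM against 47.3 to 71.7 CPM). COL1A2 (75.5 to 93.7 CPM against 24.4 to 39.8 CPM), COL3A1, COL6A3, PDGFRB, LUM, DCN and LRRC15 were also higher without overlap. TERT alone was lower without overlap (3.00 to 4.50 CPM against 5.94 to 7.97 CPM). COL5A1 (226 to 320 CPM against 183 to 362 CPM), FAP (53.1 to 62.9 CPM against 60.4 to 71.7 CPM), THY1, PDGFRA and POSTN overlapped between the co-cultures. In CM the sum was 228 to 283 CPM for senescent against 115 to 140 CPM for young MSCs. That last difference lay mainly in COL5A1 (148 to 205 CPM against 44.8 to 76.5 CPM) and FAP (51.2 to 56.9 CPM against 34.3 to 42.3 CPM), while COL1A1 (5.42 to 6.95 CPM against 5.52 to 9.44 CPM), COL1A2, COL3A1, THY1, DCN and LUM overlapped. Of 12 endothelial markers, 11 were at 1 CPM or more in every library of the 7 groups, with a sum of 3738 to 4299 CPM in co-culture and 1923 to 3956 CPM elsewhere. Of 7 epithelial markers of the A549 parent, 4 were at 1 CPM or more in every library. The sum of the 7 was 1015 to 1310 CPM on ECM and 3338 to 5173 CPM in CM. It was 3156 to 4491 CPM in co-culture and 1991 to 2435 CPM in controls. The higher sum in co-culture than in controls lay in the keratins KRT7, KRT8 and KRT18. KRT19 and MUC1 overlapped the controls, and EPCAM reached lower (0.509 to 0.927 CPM against 0.83 to 1.1 CPM). Of 5 haematopoietic markers, 1 reached 1 CPM in every library and the sum stayed at 2.41 to 6.10 CPM.

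**Figure D2:**
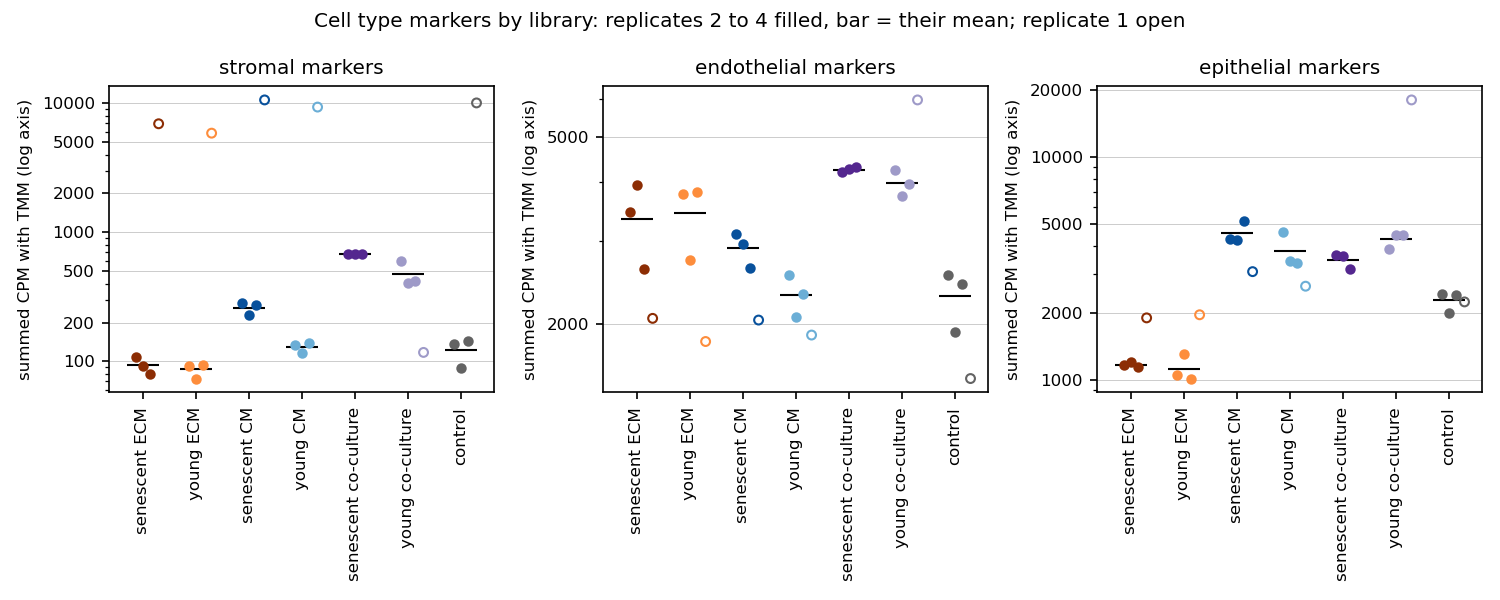
Summed CPM (log axis) of 14 stromal, 12 endothelial and 7 epithelial marker genes in each library; filled points are replicates 2 to 4, bars their means and open points replicate 1. The stromal sum in replicates 2 to 4 is highest in senescent co-culture, at 674 to 677 CPM, though not every stromal marker is. The sum reaches 5856 to 10590 CPM in replicate 1 of the control, ECM and CM groups.

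Part of the NRF2 programme was lower in co-culture. Against controls, 9 of the 32 tested members fell and 0 rose in senescent co-culture (28.1% of the tested members, where 8.05% of all 17729 genes tested passed), and 10 fell and 0 rose in young co-culture (31.2%, where 9.68% of all genes passed). By DESeq2 11 fell in senescent co-culture, where 3.87% of all genes fell, and 16 in young co-culture, where 5.1% did. The members called by DESeq2 and not by edgeR were HMOX1 and PIR in senescent and AKR1B10, CBR1, FTH1, GSR, PRDX1 and TXN in young co-culture. The median log2 fold change of the members was −0.37 in senescent and −0.39 in young co-culture, against 0.02 and 0.01 over all genes. Both comparisons share the 3 control libraries. With replicate 1 added, 0 members passed in either comparison, and the medians were −0.37 in senescent and 0.07 in young co-culture. Senescent co-culture has no replicate 1, so its comparison gained only control replicate 1. Its spread was then estimated with young co-culture replicate 1 as well. The values for senescent co-culture therefore hold no further library of that group. In the lower direction alone, 2.23% of all genes passed in senescent and 2.97% in young co-culture. In both comparisons the 4 largest falls among the members that passed were those of TXNRD1, SLC7A11, AKR1C1 and OSGIN1. All libraries of a co-culture group lay below all controls for 17 members with senescent MSCs (10.4% of all genes did so) and for 17 with young MSCs (10.8% of all genes). In bulk RNA, fewer cells of a type and less RNA per cell cannot be told apart, and co-cultures also differed from controls in the stromal, endothelial and epithelial marker sums given above, whose part in the result was not tested.

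Matrix and medium differed from each other in part of the programme as well. Over both MSC states, 10 members were higher on ECM than in CM and 0 were lower (31.2% of those tested, where 11.8% of all 18015 genes passed: 6.79% higher and 5.02% lower), with a median log2 difference of 0.26 against −0.02 over all genes. All 6 ECM libraries lay above all 6 CM libraries for 7 members (4.75% of all genes did so). By DESeq2 11 members were higher (8.75% of all genes were) and 1, TKT, was lower (6.39% of all genes). The marker sums moved with this comparison: the epithelial sum was lower on ECM, as given above, and the endothelial sum was 2622 to 3956 CPM on ECM against 2073 to 3113 CPM in CM. Of the epithelial markers, only KRT7 (452 to 598 CPM against 1990 to 3340 CPM), KRT8 and KRT18 were lower on ECM without overlap. KRT19, EPCAM and MUC1 overlapped, and CDH1 had no counts on ECM or in CM. The endothelial difference lay mainly in NOS3 (876 to 1780 CPM against 163 to 482 CPM), while the other endothelial markers overlapped. Of those, KDR and ERG reached higher on ECM. PECAM1 (430 to 628 CPM against 518 to 734 CPM), CDH5 (146 to 272 CPM against 239 to 539 CPM), VWF, EGFL7 and ROBO4 reached lower there. The stromal sum, 73.7 to 107 CPM on ECM against 115 to 283 CPM in CM, differed mainly in FAP (14.1 to 20.0 CPM against 34.3 to 56.9 CPM) and COL5A1 (24.4 to 61.1 CPM against 44.8 to 205 CPM), while COL1A1 (4.28 to 10.3 CPM against 5.42 to 9.44 CPM), COL1A2, COL3A1 and DCN overlapped. The part of these markers in the difference was not tested. Against controls, 2 members rose on young ECM (AKR1C1 and UGDH; 6.25%, where 0.649% of all genes passed and 0.461% were higher). On senescent ECM 0 passed (0.3% of all genes did), with UGDH and AKR1C1, 2 members, at p under 0.05 before adjustment by edgeR (6.79% of all genes), both of which DESeq2 called. In senescent CM 2 members fell (TXNRD1 and SLC7A11; 6.25%, where 0.505% of all genes passed and 0.2% were lower). In young CM 0 passed, as did 0 of all 18015 genes (0%), with 4 members lower at p under 0.05 before adjustment by edgeR (4.7% of all genes in either direction) and 0 called by DESeq2. By edgeR 15 members passed in at least 1 of the 10 comparisons between groups and 17 of the tested members in none.

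**Figure D3:**
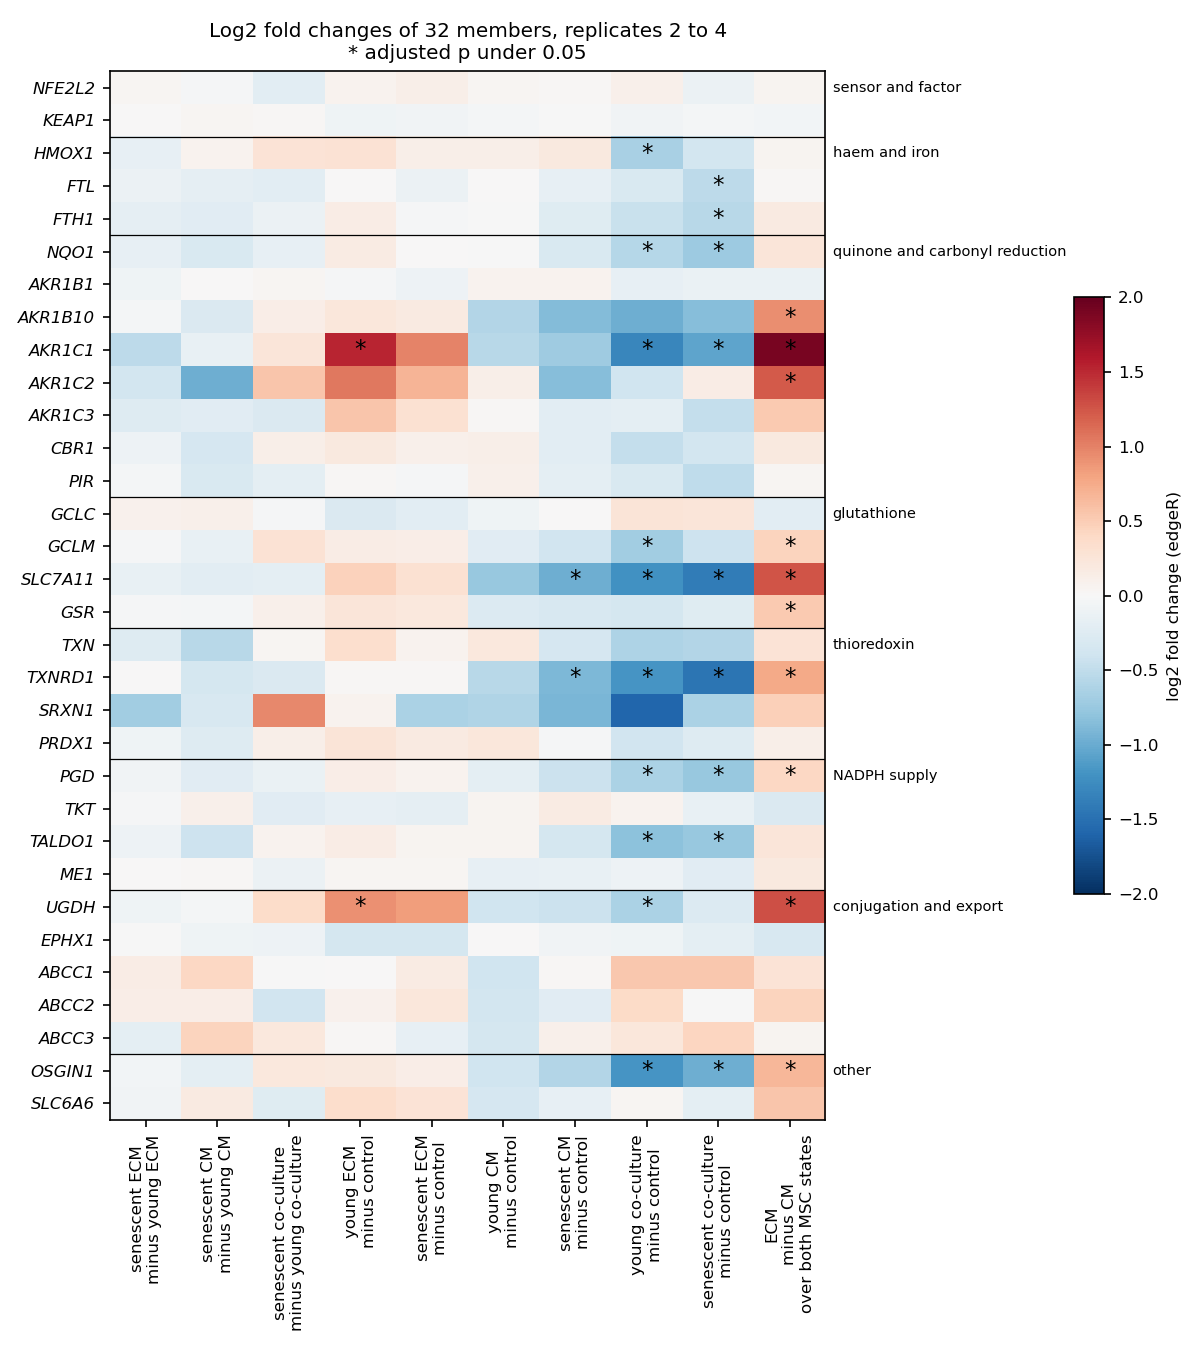
Log2 fold changes of the 32 tested members (rows, grouped by role) in the 10 comparisons between groups (columns), from edgeR on replicates 2 to 4; red is higher and blue lower in the group named first, and stars mark an adjusted p under 0.05. The co-culture columns hold 9 (senescent) and 10 (young) starred genes, all blue, and the ECM minus CM column 10, all red.

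Between senescent and young MSCs no member passed the threshold in any mode of exposure. Between senescent and young ECM, edgeR called 0 members (0% of all genes) and DESeq2 0, and before adjustment 0 members had p under 0.05 (0.783% of all genes). Between senescent and young CM, edgeR called 0 (0.0167% of all genes) and DESeq2 0; before adjustment AKR1C2 and ABCC3, 2 members, had p under 0.05 (5.41% of all genes). Between senescent and young co-culture, edgeR called 0 (0.395% of all genes) and DESeq2 0; before adjustment UGDH and ABCC2, 2 members, had p under 0.05 (5.6% of all genes). The test of whether the senescence effect differed between CM and ECM called 0 members by edgeR (0% of all genes) and 0 by DESeq2, with ABCC3 alone, 1 member, at p under 0.05 before adjustment (2.13% of all genes). The median log2 difference of the members was −0.08 on ECM, −0.16 in CM and 0.01 in co-culture, against 0.00, −0.03 and 0.00 over all genes. Leaving out 1 library moved these medians to between −0.14 (without young ECM replicate 2 or senescent ECM replicate 3) and 0.01 (without young ECM replicate 3) on ECM. In CM they ran from −0.20 (without young CM replicate 4) to −0.05 (without senescent CM replicate 4), and in co-culture from −0.04 to 0.05 (the first without senescent co-culture replicate 3, the second without its replicate 4). The median standard error of a member's difference was 0.20 on ECM, 0.20 in CM and 0.15 in co-culture. TXNRD1, which reduces oxidised thioredoxin, had a log2 difference of −0.28 ± 0.13 (adjusted p = 0.916) between senescent and young co-culture, and its libraries did not overlap; groups did not overlap for 9 members in that comparison (14% of all genes), for 1 on ECM (3.09% of all genes) and for 1 in CM (11.7% of all genes).

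Neither the factor nor its repressor passed in any comparison. NFE2L2 (ENSG00000116044.16, chr2:177227595-177392697) was at 66.5, 58.7 and 69.2 CPM in senescent co-culture and 71.5, 75.6 and 78.3 CPM in young co-culture, against 59.6, 83.5 and 69.0 CPM in controls. On ECM it was at 77.5, 73.2 and 78.3 CPM for senescent and 73.3, 73.3 and 75.8 CPM for young MSCs, and in CM at 68.7, 73.7 and 71.3 CPM and 65.1, 73.7 and 76.6 CPM. Every exposed group overlapped the control libraries, and the log2 fold changes lay between −0.11 (senescent co-culture) and 0.11 (senescent ECM). KEAP1 (ENSG00000079999.14, chr19:10486120-10503741) was at 140.3, 144 and 118 CPM in senescent and 136, 129 and 129.5 CPM in young co-culture, against 159.9, 111 and 144 CPM in controls. On ECM it was at 134, 144 and 118 CPM for senescent and 130.0, 133 and 130.4 CPM for young MSCs, and in CM at 145, 138 and 128 CPM and 150.3, 120.0 and 127 CPM. Its log2 fold changes against control ran from −0.08 to −0.01. NRF2 is regulated mainly through its protein, which RNA counts do not measure.

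Per kilobase of exon (GENCODE 29 lengths, mean of the control libraries), the iron storage chains led the set, FTL at 3849 and FTH1 at 1064 CPM per kilobase. They were followed by the peroxidase PRDX1 at 625 and by TXN at 297, NQO1 at 282 and TXNRD1 at 173 CPM per kilobase. KEAP1 stood at 36.8 and NFE2L2 at 11.8. At the low end were ABCC3 at 0.164, AKR1C2 at 0.0233 and the glutathione peroxidase GPX2, which had 0 counts in 18 of the 21 libraries of replicates 2 to 4.

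Among the glutathione genes, SLC7A11 (ENSG00000151012.13, chr4:138164097-138242349) brings in cystine for glutathione synthesis as part of the antiporter xCT. With the matrix SLC7A11 stood at 227, 183 and 239.6 CPM for senescent MSCs and at 242, 173 and 305 CPM for young ones. With conditioned medium it stood at 92.8, 81.0 and 90.0 CPM for senescent MSCs and at 86.3, 91.3 and 126 CPM for young ones. Co-cultures had 48.8, 65.0 and 82.4 CPM with senescent MSCs and 85.5, 61.8 and 77.2 CPM with young MSCs, against 156, 160.1 and 206 CPM in controls. All 6 co-culture libraries and all 6 CM libraries lay below every control library, while the ECM libraries overlapped the controls. The log2 fold change was −1.41 ± 0.21, adjusted p = 0.00131, in senescent co-culture and −1.21 ± 0.20, adjusted p = 0.00356, in young co-culture; neither call was lost when 1 library was left out. In senescent CM it was −0.98 ± 0.21, adjusted p = 0.0493, a call lost without any 1 of control replicates 2, 3 or 4 or senescent CM replicates 2, 3 or 4 (adjusted p = 0.0662 to 0.256). In young CM the value was −0.76 ± 0.21 and did not pass (adjusted p = 0.681). Between ECM and CM the libraries did not overlap, and the log2 difference was 1.25 ± 0.15, adjusted p = 4.53e-05.

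Glutamate cysteine ligase, the rate-limiting enzyme of glutathione synthesis, has a catalytic subunit, GCLC, and a modifier subunit, GCLM (ENSG00000023909.10, chr1:93885205-93909456). GCLM was at 78.5, 79.2 and 71.7 CPM in senescent co-culture and 69.0, 63.3 and 56.5 CPM in young co-culture, against 85.0, 124 and 98.1 CPM in controls. The ECM cultures had 108, 102 and 127 CPM (senescent) and 109, 114 and 118 CPM (young). The CM cultures had 85.3, 85.1 and 64.1 CPM (senescent) and 82.0, 93.7 and 82.6 CPM (young). GCLM lay below every control library in both co-culture groups. It fell in young co-culture (log2 fold change −0.69 ± 0.15, adjusted p = 0.0156), and not past the threshold in senescent co-culture (−0.41 ± 0.15, adjusted p = 0.14). The call was lost without young co-culture replicate 4 (adjusted p = 0.0842), and leaving out control replicate 2 brought the senescent comparison past the threshold (adjusted p = 0.0323). GCLM was higher on ECM than in CM by 0.44 ± 0.11, adjusted p = 0.018, a call lost without any 1 of senescent ECM replicate 4 or senescent CM replicate 4 (adjusted p = 0.0517 to 0.0575).

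GCLC was at 61.4, 60.5 and 57.4 CPM in senescent co-culture and 63.8, 61.9 and 55.7 CPM in young co-culture, against 41.1, 60.4 and 50.9 CPM in controls. The ECM cultures had 45.1, 41.4 and 45.1 CPM (senescent) and 42.3, 37.9 and 44.1 CPM (young), and the CM cultures 48.5, 48.8 and 55.1 CPM (senescent) and 37.1, 46.7 and 57.0 CPM (young). Its log2 fold change in co-culture was 0.25 ± 0.15 with senescent and 0.26 ± 0.15 with young MSCs, on the other side of 0 from GCLM, and passed in neither (adjusted p = 0.389 and 0.315). The difference between the subunits was not tested. GSR, which recycles oxidised glutathione, was at 94.1, 98.4 and 111 CPM on senescent ECM and 98.4, 89.2 and 122 CPM on young ECM, above 75.3, 70.9 and 62.0 CPM in senescent CM and 68.7, 66.05 and 77.8 CPM in young CM. These groups did not overlap, and the log2 difference between ECM and CM was 0.53 ± 0.10, adjusted p = 0.00343. Co-cultures held 70.6, 78.8 and 68.4 CPM of GSR with senescent and 73.0, 66.00 and 64.2 CPM with young MSCs, against 91.0, 79.9 and 89.9 CPM in controls; every co-culture library lay below the controls, but the fold changes of −0.25 ± 0.13 and −0.35 ± 0.13 did not pass (adjusted p = 0.295 and 0.112).

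TXNRD1 (ENSG00000198431.16, chr12:104215779-104350305), the cytosolic thioredoxin reductase, had the lowest adjusted p of the members in both co-culture comparisons. With the matrix TXNRD1 stood at 1073, 1105 and 1379 CPM for senescent MSCs and at 1157, 961 and 1414 CPM for young ones. With conditioned medium it stood at 681, 624 and 544 CPM for senescent MSCs and at 668, 736 and 934 CPM for young ones. Co-cultures had 382, 425 and 449.5 CPM with senescent MSCs and 524, 488 and 516 CPM with young MSCs, against 1015, 1159 and 1302 CPM in controls. The co-culture levels lay below those of every other group. The log2 fold change was −1.46 ± 0.13, adjusted p = 5.6e-05, in senescent co-culture and −1.18 ± 0.13, adjusted p = 0.000262, in young co-culture; leaving out any 1 library kept both calls. In senescent CM it was −0.90 ± 0.18, adjusted p = 0.0372, and the call was lost without any 1 of senescent CM replicates 2, 3 or 4 or control replicates 3 or 4 (adjusted p = 0.0876 to 0.227). In young CM all 3 libraries lay below the controls, with a value of −0.55 ± 0.18 that did not pass (adjusted p = 0.86). On ECM the libraries overlapped the controls (log2 fold change 0.03 ± 0.18 for senescent and 0.02 ± 0.18 for young MSCs). The higher level on ECM than in CM (log2 difference 0.75 ± 0.13, adjusted p = 0.00109) stood beside CM levels below control and ECM levels that overlapped it.

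The other thioredoxin genes did not pass in any comparison by edgeR. SRXN1, sulfiredoxin, which restores overoxidised peroxiredoxins, varied widely between libraries of a group. With the matrix SRXN1 stood at 5.06, 7.80 and 7.82 CPM for senescent MSCs and at 11.4, 15.1 and 6.90 CPM for young ones. With conditioned medium it stood at 5.41, 3.95 and 7.42 CPM for senescent MSCs and at 3.06, 3.75 and 14.0 CPM for young ones. Co-cultures had 3.78, 12.1 and 4.50 CPM with senescent MSCs and 3.18, 3.15 and 4.23 CPM with young MSCs, against 17.8, 5.76 and 8.20 CPM in controls. All young co-cultures lay below the controls while senescent replicate 3 lay among them. The log2 fold changes in co-culture were −0.63 ± 0.46 with senescent and −1.58 ± 0.47 with young MSCs (adjusted p = 0.492 and 0.0557). TXN, thioredoxin itself, ranged over 181 to 278 CPM in co-culture, 296 to 669.8 CPM on ECM, 218 to 480.0 CPM in CM and 270.1 to 431 CPM in controls. PRDX1, a peroxiredoxin, ranged over 648 to 824 CPM in co-culture and 915 to 973 CPM in controls, without overlap, but its fold changes of −0.26 ± 0.13 (senescent) and −0.39 ± 0.13 (young) did not pass. Processed pseudogenes held 0.898 to 1.1% of the counts on TXN and its copies and at most 0.0159% of those on PRDX1. Young ECM replicate 3 had 11.8% of its counts on ribosomal protein genes, against 5.97 and 5.49% in replicates 2 and 4. It was also the highest ECM library for 15 members, among them TXN, PRDX1, FTL, FTH1, TALDO1, NQO1 and CBR1. The share of all genes for which it was the highest was not counted. Young CM replicates 2 and 3 had 11.6 and 11.8% and control replicate 3 had 9.88%. For PRDX1, FTL, FTH1, TALDO1, NQO1 and CBR1, young CM replicate 2 was the highest CM library. The part of the ribosomal protein share in these levels was not tested.

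In the group of NADPH supply and the pentose phosphate pathway, PGD and TALDO1 fell in co-culture, and TKT and ME1 passed in no comparison of the 2 fits used. DESeq2 and the fit of all 7 groups called TKT lower on ECM than in CM. PGD (ENSG00000142657.21, chr1:10398592-10420144) is 6-phosphogluconate dehydrogenase of the oxidative pentose phosphate pathway. Its levels were 317, 369 and 266 CPM on senescent ECM and 314, 338 and 344 CPM on young ECM. In CM they were 236, 239 and 193 CPM for senescent and 303, 239 and 235 CPM for young MSCs. In co-culture they were 184, 182 and 166 CPM with senescent and 188, 202 and 194 CPM with young MSCs, against 321, 271 and 314 CPM in control cells. All co-culture libraries were below all controls, with a log2 fold change of −0.76 ± 0.12, adjusted p = 0.00285, for senescent and −0.63 ± 0.12, adjusted p = 0.00893, for young MSCs. PGD was also higher on ECM than in CM (0.42 ± 0.11, adjusted p = 0.0236), with libraries that overlapped, and that call was lost without any 1 of senescent ECM replicates 2 or 3, young CM replicate 3, young ECM replicate 4 or senescent CM replicate 4 (adjusted p = 0.0507 to 0.0731).

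TALDO1 (ENSG00000177156.11, chr11:747329-765024) is transaldolase of the non-oxidative branch. Cells on ECM held 473, 574 and 465 CPM of TALDO1 for senescent MSCs and 460.5, 710.1 and 452 CPM for young ones. Cells in CM held 367, 445 and 328 CPM for senescent MSCs and 651, 504 and 343 CPM for young ones. Senescent co-cultures held 308, 300.4 and 249 CPM and young co-cultures 244, 313 and 261 CPM, against 469, 528 and 464 CPM in controls. Co-cultures did not overlap controls, and the log2 fold change was −0.76 ± 0.14, adjusted p = 0.00612, with senescent and −0.83 ± 0.14, adjusted p = 0.00377, with young MSCs; none of the libraries left out in turn ended these calls or those of PGD in co-culture. TKT, transketolase of the same branch, ranged over 539.5 to 699 CPM in co-culture and 573 to 678 CPM in controls, with fold changes of −0.15 ± 0.13 (senescent) and 0.07 ± 0.13 (young). ME1, malic enzyme, ranged over 31.3 to 39.1 CPM in co-culture and 35.1 to 43.1 CPM in controls, with fold changes of −0.23 ± 0.13 and −0.11 ± 0.13.

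NQO1 (ENSG00000181019.13, chr16:69706996-69726951), a quinone reductase and standard readout of NRF2 activity, fell in co-culture. With the matrix NQO1 stood at 814, 963 and 988 CPM for senescent MSCs and at 816, 1300 and 967 CPM for young ones. With conditioned medium it stood at 659.6, 810.0 and 741 CPM for senescent MSCs and at 980.1, 942 and 771 CPM for young ones. Co-cultures had 581, 554 and 508 CPM with senescent MSCs and 518, 707 and 618 CPM with young MSCs, against 767, 1036 and 945 CPM in controls. The co-culture libraries lay below all controls, while ECM and CM overlapped them. The log2 fold change was −0.73 ± 0.15, adjusted p = 0.0123, in senescent co-culture, and no library left out ended that call. In young co-culture it was −0.57 ± 0.15, adjusted p = 0.0405, and the call was lost without any 1 of young co-culture replicates 2 or 4 or control replicates 3 or 4 (adjusted p = 0.0672 to 0.131). Between ECM and CM the difference of 0.24 ± 0.13 did not pass (adjusted p = 0.271).

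AKR1C1, AKR1C2 and AKR1C3, ketosteroid reductases that lie side by side at chr10:4963253-4983283, chr10:4987400-5018031 and chr10:5035354-5107686, are near-identical, so the split of reads between them is uncertain. With the matrix AKR1C1 stood at 3.19, 5.10 and 4.32 CPM for senescent MSCs and at 4.97, 7.80 and 5.36 CPM for young ones. With conditioned medium it stood at 1.10, 1.68 and 1.06 CPM for senescent MSCs and at 1.49, 1.74 and 0.966 CPM for young ones. Co-cultures had 0.937, 1.21 and 0.858 CPM with senescent MSCs and 0.651, 1.05 and 0.833 CPM with young MSCs, against 1.80, 2.31 and 2.19 CPM in controls. AKR1C1 was above every control on ECM and below every control in CM and co-culture. On young ECM it rose, with a log2 fold change of 1.52 ± 0.27, adjusted p = 0.0141, a call lost without either of control replicates 2 and 4 (adjusted p = 0.0514 to 0.0868), and stood at 1.00 ± 0.26, adjusted p = 0.162, on senescent ECM. Its log2 fold change was −1.05 ± 0.23, adjusted p = 0.0143, in senescent co-culture and −1.30 ± 0.23, adjusted p = 0.00445, in young co-culture, the senescent call being lost without either of senescent co-culture replicates 2 and 4 (adjusted p = 0.0546 to 0.0654). Between ECM and CM it differed by 1.89 ± 0.19, adjusted p = 1.2e-05, the largest log2 difference among the members in that comparison.

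AKR1C2 rested on 6 to 44 counts a library. Its levels were 0.219, 0.251 and 0.263 CPM on senescent ECM and 0.199, 0.306 and 0.437 CPM on young ECM, and 0.0950, 0.0715 and 0.0795 CPM in senescent CM and 0.150, 0.241 and 0.0939 CPM in young CM. Co-cultures had 0.200, 0.147 and 0.155 CPM (senescent) and 0.120, 0.127 and 0.0936 CPM (young), against 0.180, 0.144 and 0.128 CPM in controls. It was higher on ECM than in CM by 1.23 ± 0.27, adjusted p = 0.00646, with overlapping libraries. AKR1C3 held most of the reads of the 3 genes. Its levels were 18.9, 28.5 and 22.9 CPM on senescent ECM, 21.3, 40.9 and 21.7 CPM on young ECM, 13.3, 18.1 and 17.7 CPM in senescent CM and 20.1, 22.4 and 14.6 CPM in young CM. Co-cultures had 16.1, 13.9 and 10.6 CPM (senescent) and 14.2, 20.5 and 14.8 CPM (young), against 15.2, 24.1 and 17.8 CPM in controls, and AKR1C3 passed in no comparison. Summed over the 3 genes, levels were 22.3 to 49.0 CPM on ECM and 14.5 to 24.3 CPM in CM. They were 11.6 to 21.7 CPM in co-culture and 17.1 to 26.6 CPM in controls. The ECM range lay above that of co-culture, and all other pairs of these ranges overlapped. The sum does not depend on how counted reads were split between the genes. Any reads left uncounted because they match more than 1 of the genes are missing from it too.

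AKR1B10 (ENSG00000198074.10, chr7:134527592-134541408), an aldo-keto reductase known as an NRF2 target in lung carcinoma, was higher on ECM than in CM. AKR1B10 was at 4.67, 4.96 and 2.53 CPM in senescent co-culture and 3.51, 5.17 and 2.47 CPM in young co-culture, against 5.30, 9.72 and 7.10 CPM in controls. The ECM cultures had 7.83, 9.57 and 7.60 CPM (senescent) and 6.65, 12.1 and 6.99 CPM (young). The CM cultures had 3.39, 5.20 and 3.44 CPM (senescent) and 4.80, 5.87 and 3.80 CPM (young). ECM and CM did not overlap, with a log2 difference of 0.93 ± 0.19, adjusted p = 0.00465, and the call held without any 1 library. Every co-culture library lay below the controls, but the fold changes of −0.85 ± 0.32 (senescent) and −0.98 ± 0.32 (young) did not pass (adjusted p = 0.145 and 0.0789), although DESeq2 and the fit of all 7 groups called the young one. Its neighbour on the chromosome, the aldose reductase AKR1B1, stayed within 274 to 448 CPM over all 7 groups, and the carbonyl reductase CBR1 and the iron-binding pirin gene PIR within 65.3 to 174 and 29.6 to 64.0 CPM; none of them passed in any comparison by edgeR.

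HMOX1 (ENSG00000100292.18, chr22:35380361-35394214), haem oxygenase 1, fell in young co-culture. Its levels were 78.1, 82.7 and 53.3 CPM on senescent ECM and 71.2, 87.8 and 81.3 CPM on young ECM. In CM they were 86.8, 91.3 and 45.0 CPM for senescent and 95.3, 73.6 and 40.6 CPM for young MSCs. In co-culture they were 53.5, 51.9 and 45.4 CPM with senescent and 40.4, 44.0 and 40.7 CPM with young MSCs, against 73.2, 62.2 and 61.5 CPM in control cells. Both co-culture groups lay below all controls, and the co-culture groups did not overlap each other. The log2 fold change was −0.65 ± 0.13, adjusted p = 0.0105, with young MSCs, a call lost without young co-culture replicate 4 (adjusted p = 0.0558) and with the 7 groups in 1 fit (adjusted p = 0.116), and −0.37 ± 0.13, adjusted p = 0.116, with senescent MSCs, where DESeq2 called it (adjusted p = 0.0463). Replicate 4 was the lowest library in both CM groups, senescent ECM, senescent co-culture and control.

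The ferritin chains fell in senescent co-culture. FTH1 (ENSG00000167996.16, chr11:61959718-61967660), the heavy chain, was at 1602, 1444 and 1315 CPM in senescent and 1393, 1748 and 1575 CPM in young co-culture, against 2064, 2276 and 2142 CPM in controls. All co-culture libraries lay below all controls. On ECM FTH1 was at 1975, 2508 and 1888 CPM (senescent) and 1973, 3176 and 2037 CPM (young), and in CM at 1779, 1917 and 1750 CPM (senescent) and 2486, 2158 and 1687 CPM (young). Its log2 fold change was −0.56 ± 0.13, adjusted p = 0.0206, with senescent MSCs, lost without any 1 of senescent co-culture replicates 3 or 4 or control replicate 4 (adjusted p = 0.0523 to 0.0725), and −0.45 ± 0.13, adjusted p = 0.0513, with young MSCs. That young value passed with RLE size factors (adjusted p = 0.042), by DESeq2 (adjusted p = 0.0111) and without control replicate 2 (adjusted p = 0.0479). FTL (ENSG00000087086.15, chr19:48965301-48966878), the light chain, was at 2611, 2236 and 2149 CPM in senescent and 2308, 3088 and 2718 CPM in young co-culture, against 3076, 3782 and 3280 CPM in controls. With senescent MSCs every library lay below the controls. On ECM it was at 2758, 3681 and 2953 CPM (senescent) and 2718, 4504 and 2925 CPM (young), and in CM at 2664, 3270 and 3073 CPM (senescent) and 3849, 3422 and 2788 CPM (young). Its log2 fold change was −0.52 ± 0.14, adjusted p = 0.0471, with senescent MSCs, lost without any 1 of senescent co-culture replicates 2, 3 or 4 or control replicates 3 or 4 (adjusted p = 0.0601 to 0.147) and with the 7 groups in 1 fit (adjusted p = 0.0779), and −0.31 ± 0.14, adjusted p = 0.215, with young MSCs, whose libraries overlapped the controls. Pseudogenes held 1.22 to 1.65% of the counts on FTH1 and its copies and 0.24 to 0.301% of those on FTL and its copies.

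UGDH (ENSG00000109814.12, chr4:39498755-39528311) makes UDP-glucuronate, used both to conjugate foreign compounds and to build hyaluronan and proteoglycans. Cells on ECM held 146, 154 and 211 CPM of UGDH for senescent MSCs and 171, 151 and 223 CPM for young ones. Cells in CM held 73.5, 71.7 and 65.8 CPM for senescent MSCs and 64.5, 73.8 and 77.0 CPM for young ones. Senescent co-cultures held 69.6, 84.8 and 82.5 CPM and young co-cultures 62.4, 54.1 and 66.4 CPM, against 84.0, 99.0 and 104 CPM in controls. All 6 ECM libraries were above every other library, and the log2 difference between ECM and CM was 1.29 ± 0.13, adjusted p = 8.29e-06, the lowest adjusted p among the members in that comparison. On young ECM UGDH rose, with a log2 fold change of 0.92 ± 0.18, adjusted p = 0.0251, lost without any 1 of control replicates 2, 3 or 4 or young ECM replicates 2 or 4 (adjusted p = 0.0656 to 0.136), and stood at 0.83 ± 0.18, adjusted p = 0.0613, on senescent ECM, a value that DESeq2 called (adjusted p = 0.000962). In young co-culture its log2 fold change was −0.64 ± 0.14, adjusted p = 0.0171, lost without any 1 of young co-culture replicate 3 or control replicate 4 (adjusted p = 0.0672 to 0.0706). In senescent co-culture it was −0.27 ± 0.14, adjusted p = 0.329, with libraries that overlapped the controls. Senescent co-culture was above young co-culture in every library, by 0.37 ± 0.14, adjusted p = 0.702.

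The export pumps and EPHX1 passed in no comparison by edgeR, while DESeq2 called ABCC2 higher on ECM than in CM. ABCC1, ABCC2 and ABCC3, which export glutathione and glucuronide conjugates, ranged over 4.04 to 19.0, 1.65 to 4.53 and 1.03 to 2.17 CPM in the 7 groups. Their log2 fold changes in senescent co-culture, 0.54 ± 0.39, 0.00 ± 0.17 and 0.44 ± 0.18, did not pass. EPHX1, microsomal epoxide hydrolase, ranged over 25.0 to 52.5 CPM. The taurine transporter gene SLC6A6 ranged over 41.6 to 127 CPM, and replicate 3 was its lowest library in every group but senescent co-culture.

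OSGIN1 (ENSG00000140961.14, chr16:83948282-83966332), a growth inhibitor induced by oxidised lipids, fell in co-culture. Its levels were 49.96, 54.4 and 37.5 CPM on senescent ECM and 48.1, 44.5 and 54.7 CPM on young ECM. In CM they were 33.0, 30.6 and 21.4 CPM for senescent and 43.0, 28.2 and 24.9 CPM for young MSCs. In co-culture they were 24.1, 22.3 and 18.3 CPM with senescent and 19.9, 17.8 and 18.4 CPM with young MSCs, against 50.6, 30.8 and 46.6 CPM in control cells. The co-culture libraries lay below all controls, with a log2 fold change of −0.98 ± 0.19, adjusted p = 0.00799, for senescent and −1.18 ± 0.19, adjusted p = 0.00268, for young MSCs; leaving out any 1 library kept both calls. OSGIN1 was higher on ECM than in CM by 0.66 ± 0.17, adjusted p = 0.019, with overlapping libraries, and that call was lost without any 1 of young CM replicate 3 or senescent CM replicate 4 (adjusted p = 0.0564 to 0.0594).

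**Figure D4:**
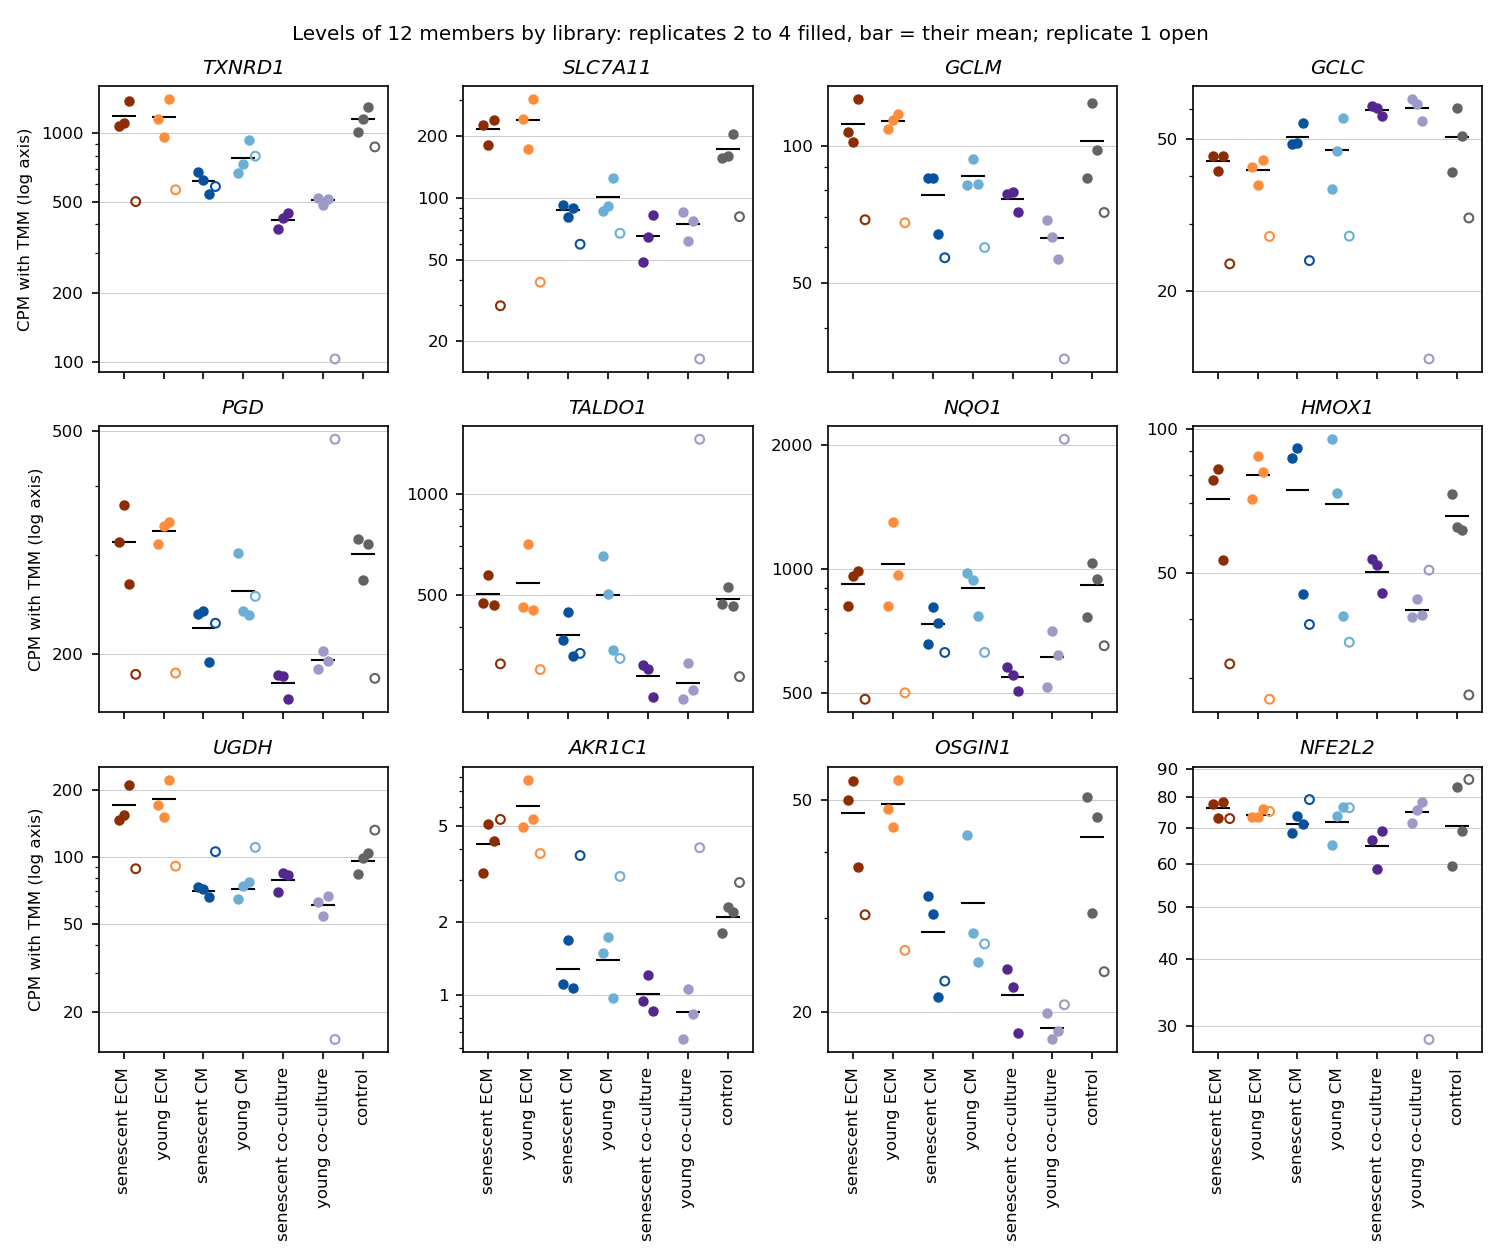
CPM with TMM scaling (log axis, own range in each panel) of 12 members in each library of the 7 groups; filled points are replicates 2 to 4, bars their means and open points replicate 1. TXNRD1 is lowest in co-culture (382 to 524 CPM), UGDH is highest on ECM (146 to 223 CPM), NFE2L2 overlaps controls in every group, and replicate 1 often lies far from its group.

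Of 61 other genes of oxidative stress and NRF2 biology, 58 were tested against controls in co-culture. There 6 rose and 3 fell with senescent MSCs (15.5% of those tested, where 8.05% of all genes passed) and 5 rose and 3 fell with young MSCs (13.8%, where 9.68% of all genes passed). Of the 56 tested between ECM and CM, 6 were higher and 4 lower on ECM (17.9%, where 11.8% of all genes passed). In the other 7 comparisons between groups 0 passed by edgeR, with 1 to 5 at p under 0.05 before adjustment (0.783 to 8.52% of all genes). There DESeq2 called 1 between senescent and young co-culture (0.908% of all genes) and 1 on young ECM against control (1.92% of all genes). The median log2 fold change was −0.15 in senescent co-culture, −0.13 in young co-culture and 0.01 between ECM and CM. TRIM16L, a relative of the NRF2 target TRIM16, fell in co-culture, to 10.8, 10.2 and 9.32 CPM with senescent and 10.5, 12.2 and 12.1 CPM with young MSCs, against 18.1, 20.8 and 24.3 CPM in controls (log2 fold change −1.05 ± 0.15 and −0.85 ± 0.15; adjusted p = 0.00107 and 0.00398). TXNIP, the thioredoxin-binding inhibitor, rose there to 7.74, 6.96 and 5.01 CPM and 10.9, 10.3 and 9.91 CPM, against 3.94, 3.21 and 3.96 CPM (0.84 ± 0.18 and 1.49 ± 0.18; adjusted p = 0.013 and 0.000399). The senescent call of TXNIP was lost without either of senescent co-culture replicates 2 and 3 (adjusted p = 0.0731 to 0.084). MT1X, a metallothionein, was lower on ECM (12.2, 13.2 and 10.1 CPM with senescent and 11.1, 15.9 and 10.2 CPM with young MSCs) than in CM (24.7, 28.5 and 30.0 and 36.2, 25.8 and 21.1 CPM), by −1.21 ± 0.15, adjusted p = 5.84e-05. SESN1, a p53-induced sestrin, was also lower on ECM (23.2, 22.1 and 23.5 and 20.6, 25.1 and 20.5 CPM) than in CM (30.4, 33.5 and 39.7 and 29.2, 34.6 and 38.8 CPM), by −0.63 ± 0.12, adjusted p = 0.00274.

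The antioxidant enzymes GPX3, PRDX2 and GSTM3 of that list rose in both co-culture groups and SOD3 in senescent co-culture, all at levels near or below 1 CPM. GPX3 was at 0.724, 0.758 and 0.366 CPM with senescent and 0.170, 0.237 and 0.159 CPM with young MSCs, against 0.0361, 0.0412 and 0.0532 CPM in controls (3.81 ± 0.41 and 2.11 ± 0.43; adjusted p = 0.000137 and 0.0111). SOD3 was at 1.14, 0.893 and 0.450 CPM in senescent co-culture, against 0.226, 0.247 and 0.128 CPM in controls (2.05 ± 0.37, adjusted p = 0.00505). The log2 fold changes of PRDX2 were 2.29 ± 0.39 (senescent) and 2.02 ± 0.39 (young; adjusted p = 0.00362 and 0.00752), and those of GSTM3 2.50 ± 0.38 and 2.36 ± 0.38 (adjusted p = 0.00168 and 0.00248). In the replicate 1 libraries of the control, ECM and CM groups, which hold 5856 to 10590 CPM of stromal markers, GPX3 was at 3.72, 3.95, 2.85, 3.16 and 3.13 CPM and PRDX2 at 50.2, 47.1, 48.9, 41.5 and 38.1 CPM, in the order senescent ECM, young ECM, senescent CM, young CM and control. The part of stromal RNA in the co-culture levels of these genes was not tested.

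Replicate 1 was set apart from the tests above, and adding it ended nearly all calls. With all replicates 0 members passed in either co-culture comparison or against control on ECM or in CM, and between ECM and CM the calls of AKR1C1 (1.41, adjusted p = 0.00823) and UGDH (0.94, adjusted p = 0.00955) held and TKT passed, lower on ECM. The common biological coefficient of variation was 0.527 with replicate 1 and 0.216 without it in the fit of control, ECM and CM groups. In replicate 1 of the stromal-marker-rich groups most members were low: 26 of 32 lay below the mean of replicates 2 to 4 in senescent ECM, 26 in young ECM, 20 in senescent CM, 21 in young CM and 26 in control. The share of all genes below that mean was not counted, so these counts do not set the members apart from other genes. SLC7A11 was at 29.9 CPM in senescent ECM, 38.9 CPM in young ECM, 59.6 CPM in senescent CM, 67.4 CPM in young CM and 81.2 CPM in control replicate 1. TXNRD1 was at 503, 566, 586, 795 and 873 CPM in the same order. HMOX1, AKR1B10, AKR1C3 and GCLC, 4 of the 32, were lower in all 5 of these libraries than in any library of replicates 2 to 4 (5.95% of all 18015 genes were), and AKR1C2 and ABCC3, 2 of the 32, were higher than in any (8.65% of all genes). The part of the stromal RNA in these values was not tested. In young co-culture replicate 1 the members split: 23 were above the mean of replicates 2 to 4, among them FTL at 22610 CPM, and 9 below, among them TXNRD1 at 103 CPM. How all genes split in that library was not counted.

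**Figure D5:**
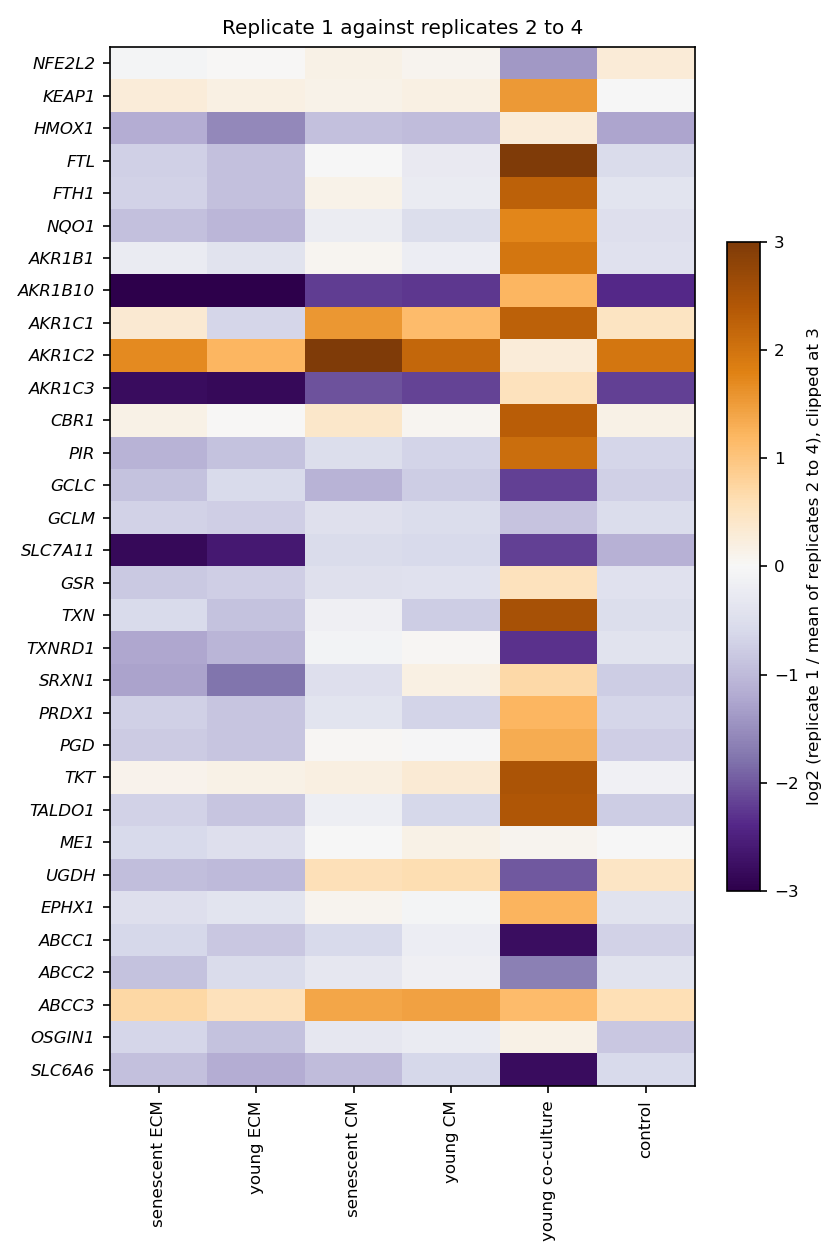
Log2 ratio of replicate 1 to the mean of replicates 2 to 4 (colour, clipped at 3 in both directions) for the 32 tested members (rows) in the 6 groups that have a replicate 1 (columns). Young co-culture replicate 1 departs in both directions, with FTL at 22610 CPM high and TXNRD1 at 103 CPM low, and AKR1B10, AKR1C3 and SLC7A11 are low in replicate 1 of both ECM groups.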

How the data were processed

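Poly(A) RNA of 27 samples was sequenced, 1 library each, with a stranded kit per the labels. The values the authors deposited are whole-number counts per Ensembl gene entry; per the submitters' processing notes, which name tools with no order, they rest on HISAT2 2.2.1, featureCounts 2.0.1 and GRCh38. For the annotation release and the strand setting nothing is stated, so overlapping antisense genes cannot be told apart. Of 60648 entries, 44 second copies on the Y pseudoautosomal regions were left out; symbols came from a gene name table and GENCODE 29, as did lengths and coordinates.

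Replicates 2 to 4 were tested with edgeR 4.0.16 in R 4.3.3 (quasi-likelihood F-test, 2-sided, TMM, filterByExpr with a minimum count of 10), in 1 fit of the control, ECM and CM groups (15 libraries) and 1 of the control and co-culture groups (9 libraries). P-values were adjusted by Benjamini-Hochberg over all genes tested, and passing means an adjusted p under 0.05. Each ± beside a log2 fold change is its standard error. The fits were also run on simulated counts with known changes and independent libraries. That run left out the correlation of same-numbered libraries given below, so it does not measure how reliable the calls here are. Alternatives were no filter, RLE size factors, DESeq2 1.42.0, a replicate block, all replicates, the 7 groups in 1 fit, and leaving out each library. Libraries of 1 group differed by more than counting noise, so none was counted as a duplicate. Every member that passed, and a further set of core members, was given with all its libraries; others were given by range. From the other genes of the pathway, the 8 with the lowest adjusted p were named. The members and lists were chosen with earlier results of these data known.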

Additional observations from a re-analysis of the deposited data

Results flagged for a closer look

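In groups of 4 libraries, a library was picked out when its gap to the nearest other library exceeded Dixon's 95% critical share of the group's range. This happened in 26 of 192 sets of a member and a group, where chance gives about 1 in 20 for independent sets. Sets that share a library are not independent. The share of all genes picked out was not counted, so the number does not set the members apart from other genes. Young co-culture replicate 1, the library with 26.2% of counts on ribosomal protein genes, accounted for 17. There NFE2L2 was low at 28.4 CPM (others 71.5 to 78.3), GCLC at 13.2 CPM and TXNRD1 at 103 CPM. In the same library KEAP1 was high at 380.5 CPM (others 129 to 136), FTL at 22610 CPM, FTH1 at 7501 CPM, NQO1 at 2062 CPM and AKR1B1 at 1213 CPM. AKR1C1 was high at 4.07 CPM, CBR1 at 385 CPM, PIR at 158 CPM, TXN at 1248 CPM and PRDX1 at 1680.0 CPM. PGD was high at 484 CPM, TKT at 3720 CPM, TALDO1 at 1456 CPM and EPHX1 at 88.8 CPM.

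AKR1C2 was high in replicate 1 of senescent ECM (0.797 CPM, others 0.219 to 0.263), of senescent CM (0.940 CPM) and of control (0.588 CPM), and ABCC3 in replicate 1 of senescent CM (4.41 CPM, others 1.54 to 1.82) and of young CM (3.33 CPM). TKT was high in senescent CM replicate 1 at 821 CPM (others 709 to 720). PRDX1 was low in control replicate 1 at 612 CPM (others 915 to 973), and ME1 in senescent ECM replicate 1 at 26.7 CPM (others 40.0 to 41.1). Among replicates 2 to 4, ABCC1 was high in young CM replicate 4 at 10.4 CPM (others 6.09 to 6.63).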

How the results depend on the processing

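The number of members called moved by more than 1.5 times in these cases. Between senescent and young co-culture it was 1 (SRXN1) with no filter on low counts, against 0. On senescent ECM against control it was 2 with no filter, 2 by DESeq2, 2 with the replicate block and 1 with the 7 groups in 1 fit, against 0, all of them AKR1C1 or UGDH. In young CM it was 1 (SLC7A11) with no filter, against 0, and in senescent CM 4 with no filter, against 2. In young co-culture it was 16 by DESeq2, against 10. With all replicates it was 0 on young ECM, 0 in senescent CM, 0 in both co-culture groups and 3 between ECM and CM. Leaving out 1 library at a time gave 0 to 2 on young ECM, 0 to 1 in senescent CM, 6 to 12 in senescent co-culture, 7 to 14 in young co-culture, 7 to 12 between ECM and CM and 0 in the other comparisons. The cause was not tested.

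Over the 68 single-gene results recomputed (918 values under alternatives), a log2 fold change changed sign only with all replicates; the other values of single members were not recomputed. There TXNRD1 was at 0.048 between senescent and young co-culture. In senescent co-culture against control, where only control gained a replicate 1, GPX3 was at −0.47, SOD3 at −3.04, PRDX2 at −4.05, TXNIP at −0.17 and GSTM3 at −3.33. In young co-culture against control NQO1 was at 0.14, TALDO1 at 0.32, FTH1 at 0.52, FTL at 1.24, GPX3 at −2.05, PRDX2 at −3.60 and GSTM3 at −3.22, and CHAC1 was at −1.44 between ECM and CM. Signs over all members did move when 1 library was left out. On young ECM against control 27 members were positive and 5 negative, and 18 and 14 without young ECM replicate 3. On senescent ECM 22 were positive and 10 negative, and 16 each without senescent ECM replicate 3. For senescent minus young ECM 7 were positive and 25 negative, and 17 and 15 without young ECM replicate 3. The split of signs over all genes was not counted. The median log2 value of all genes in these comparisons was 0.002, −0.013 and −0.002, in the same order. Without those libraries it was −0.011, −0.016 and −0.0006.

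Same-numbered libraries correlated over 0.1 in 23 of 30 pairs of the control, ECM and CM groups (−0.14 to 0.53) and in 6 of 9 pairs of the control and co-culture groups (−0.23 to 0.55). All 3 pairs were over 0.1 for control with young co-culture (0.423, 0.553 and 0.131), control with young ECM, control with young CM, and senescent ECM with senescent CM. A fit was to be taken as paired only if every pair of its groups was over 0.1 or the labels gave a shared origin, and neither held. With the replicate block 2 members were called on young ECM, 3 in senescent CM, 13 in young co-culture, 11 in senescent co-culture and 12 between ECM and CM. Over all genes the block called 321, 230, 2053, 1713 and 3320 in the same order, against 117, 91, 1716, 1428 and 2127 without it. The block added AKR1B10 in senescent CM, AKR1B10 and TXN in both co-culture groups, FTH1 in young co-culture (adjusted p = 0.0489), and AKR1C3 and SLC6A6 between ECM and CM.

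Over all genes, leaving out 1 library at a time gave 782 to 2148 calls in senescent co-culture against control (1428 with all 3), 885 to 2339 in young co-culture (1716), 12 to 36 on senescent ECM (54), 27 to 131 on young ECM (117), 22 to 74 in senescent CM (91) and 0 to 2 in young CM (0). It gave 1492 to 3414 between ECM and CM (2127) and 25 to 55 between senescent and young co-culture (70). The shares of all genes set beside the members rest on these counts. Between senescent and young ECM the count was 0, and 37 with no filter. For CM it was 3, and 148 with no filter, 49 by DESeq2, 7 with the block and 0 with all replicates; for co-culture 70, and 249 with no filter, 161 by DESeq2 and 0 with all replicates. Against control it was 117 on young ECM, and 363 with no filter, 346 by DESeq2, 321 with the block, 235 with 7 groups and 1 with all replicates. On senescent ECM it was 54, and 290 with no filter, 234 by DESeq2, 200 with the block, 146 with 7 groups and 0 with all replicates. In young CM it was 0, and 109 with no filter, 33 by DESeq2, 6 with the block and 16 with 7 groups; in senescent CM 91, and 284, 277, 230 and 206 in the same order and 0 with all replicates. With all replicates it was 30 in senescent co-culture, against 1428, 45 in young co-culture, against 1716, and 693 between ECM and CM, against 2127 (3320 with the block). The difference of the senescence effects had 0, and 49 with no filter, 3 by DESeq2 and 1 with 7 groups. GPX2 (0 counts in 18 of 21 libraries), AKR1C2 (6 to 44 counts a library), GPX3 (2 to 67) and ASNS (2 to 28) were on few counts.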

Other observations

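SLC7A11 is also a known target of ATF4, the factor of the amino acid response, and a list of 6 ATF4 genes was measured beside it. Between ECM and CM, 3 of the 6 were higher on ECM over both MSC states (ASNS, CHAC1 and TRIB3), where 6.79% of all genes were higher and 11.8% passed in either direction. In the other comparisons between groups 0 were called by edgeR, with up to 4 at p under 0.05 before adjustment (on young ECM, where 8.52% of all genes had), or by DESeq2. TRIB3, a pseudokinase induced by ATF4, was at 100.0, 120.3 and 83.4 CPM on senescent ECM and 104, 98.3 and 104 CPM on young ECM, against 69.4, 71.3 and 52.2 CPM in senescent CM and 65.7, 57.1 and 57.4 CPM in young CM. Its log2 difference was 0.69 ± 0.12, adjusted p = 0.000849, by edgeR, and the libraries did not overlap. CHAC1, which degrades glutathione and is also among the 61 other genes of the oxidative stress list, differed by 0.68 ± 0.15, adjusted p = 0.00748, by edgeR. ASNS, asparagine synthetase, passed on few counts, at 0.147 to 0.278 CPM on ECM against 0.0268 to 0.191 CPM in CM, with libraries that overlapped (1.25 ± 0.26, adjusted p = 0.00422, by edgeR). ATF4 itself did not pass in any comparison. In co-culture against control 0 of the 6 passed by edgeR (8.05% of all genes did with senescent and 9.68% with young MSCs). TRIB3 lay below all controls in young co-culture (−0.39 ± 0.15, adjusted p = 0.132, by edgeR). In senescent co-culture CHAC1 lay below all controls (−0.32 ± 0.20, adjusted p = 0.415, by edgeR) and ASNS above them (0.71 ± 0.35, adjusted p = 0.287, by edgeR). The part of ATF4 in the levels of SLC7A11 was not tested.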
